A study of Mus musculus with 3 samples.

Results

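The small RNAs described here are the reads that aligned to the mitochondrial genome (chrM) in 3 small RNA libraries from MIN6, a mouse insulinoma cell line that is widely used as a model of the pancreatic beta cell. All libraries came from cells grown in medium with 25 mM glucose. They are biological replicates of this single condition, so nothing below compares treatments. Every alignment on chrM was taken, on both strands, which gave 21071 of 1007929 alignments in replicate 1, 22451 of 1095335 in replicate 2 and 21082 of 1036409 in replicate 3. Together these alignments began at 9608 distinct 5′-starts, and each start was assigned to the mitochondrial gene that holds it. The libraries were made from total RNA with a kit that captures short RNAs with a 5′-phosphate, so a level here counts short reads from a locus and is not the level of the full-length transcript. Because trimmed reads were at most 41 nt long, an intact tRNA could not be seen.

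The mouse mitochondrial genome is a small circle that encodes both rRNAs of the mitochondrial ribosome, the tRNAs needed to translate its own messages, and core subunits of the respiratory chain and of ATP synthase. Both strands are transcribed from promoters in the noncoding control region into long precursors, in which tRNAs lie between many of the other genes. Excision of the tRNAs by RNase P at the 5′-end and by RNase Z at the 3′-end sets most ends of the flanking rRNAs and mRNAs. A separate enzyme then adds the bases CCA, which the mitochondrial genome does not encode, to the 3′-end of every tRNA.

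The sequences of the leading fragments are given first because the results turn on where they begin and how they end. Positions refer to chrM of mm9, the strand follows each position, letters are DNA, and capitals mark 3′-terminal bases from the first mismatch to the genome onward. Fragments of mt-Rnr1 are not shown. The most abundant fragments that began on the first base of mt-Rnr2 and of the tRNAs with the highest first-base levels were, with mt-Ts2 in its tailed and its untailed form:
mt-Rnr2, chrM:1094-1117, plus strand: actaatcctagccctagccctaca
mt-Tm, chrM:3845-3875, plus strand: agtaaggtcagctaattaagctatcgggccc
mt-Ts2 with ACC, chrM:11613-11648, plus strand: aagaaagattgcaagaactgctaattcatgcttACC
mt-Ts2 without a tail, chrM:11613-11644, plus strand: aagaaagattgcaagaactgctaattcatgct
mt-Tq, chrM:3804-3842, minus strand: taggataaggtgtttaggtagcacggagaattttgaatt
mt-Ts1, chrM:6921-6938, minus strand: gagaaagacatataggat

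The next set shows 3′-fragments of tRNAs that carried CCA. Their stated positions include the 3 tail bases, which lie beyond the last base of the gene:
mt-Tv, chrM:1059-1096, plus strand: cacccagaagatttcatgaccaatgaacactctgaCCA
mt-Te, chrM:14068-14101, minus strand: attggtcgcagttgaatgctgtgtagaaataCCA
mt-Tk, chrM:7735-7767, plus strand: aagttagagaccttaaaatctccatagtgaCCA
mt-Tn, chrM:5086-5121, minus strand: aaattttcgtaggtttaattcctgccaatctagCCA
mt-Tw, chrM:4999-5019, plus strand: acacaagtttaacttctgCCA

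The last set shows the fragments that began on the base right after a tRNA, on a strand where no gene begins:
after mt-Tt, antisense to mt-Tp, chrM:15356-15392, plus strand: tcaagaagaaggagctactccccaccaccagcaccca
after mt-Tq, antisense to mt-Ti, chrM:3754-3771, minus strand: aaataagagggcttgaaa

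The mitochondrial genome contributed 4729, 4475 and 4568 RPM (reads per 1000000 mapped reads) in replicates 1, 2 and 3, with a mean of 4591 ± 128 RPM (SD, n = 3). All means below are over the same 3 libraries, with the SD after ±, and shares of single genes or starts without an SD are over the summed reads of the 3 libraries. The libraries held 9269795, 10816006 and 10218743 mapped reads, so the mitochondrial share was 0.473% in replicate 1 (95% Wilson interval 0.468 to 0.477), 0.448% in replicate 2 (0.444 to 0.452) and 0.457% in replicate 3 (0.453 to 0.461). These intervals cover counting error only, and the interval of replicate 1 did not overlap those of the other libraries. In the smallest library a count of 0 allows up to 3 reads, which is 0.324 RPM. Between 84.5% and 85.9% of the mitochondrial reads had a whole-number value. This is an upper limit of the reads with a single locus, since divided reads can also sum to a whole number.

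The reads were concentrated on few loci. The 2 rRNA genes held 49.3% ± 2.31 of the mitochondrial reads, the 22 tRNA genes 27.2% ± 1.95, the control region 14.1% ± 0.866, the 13 coding genes 8.03% ± 0.519 and the bases between genes 1.41% ± 0.0624. Within genes, 94.4% ± 0.480 of the reads were sense. The rRNA share was highest in replicate 1 (51.9%) and the tRNA share was lowest there (25.2%), compared with 48.6% and 27.1% in replicate 2 and 47.4% and 29.1% in replicate 3. Of the 9608 starts, 432 had at least 10 reads in every library, and these held 75.9% of the mitochondrial reads. Of these 432 starts, 247 were sense in an rRNA gene, 96 sense in a tRNA gene, 49 on the minus strand of the control region and 13 sense in a coding gene. The 20 leading starts held 45.9% of the mitochondrial reads, and the 6 leading starts 38.1%.

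Among the 20 leading starts, 6 were the first base of an rRNA or tRNA gene, 5 lay in mt-Tv, 4 lay inside an rRNA gene, 2 lay right after a tRNA, 1 lay in the control region, and the others lay inside mt-Th and mt-Tl1. Across the 432 starts, the levels of pairs of libraries gave Pearson's r of 0.992 to 0.998 in RPM and of 0.944 to 0.951 in log10 RPM. These are correlations across starts, which share fragments and are not independent. For 19 of the 20 leading starts the highest library was at most 1.69 times the lowest. The exception was the first base of mt-Tq, where it was 3.15 times the lowest.

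**Figure D1:**
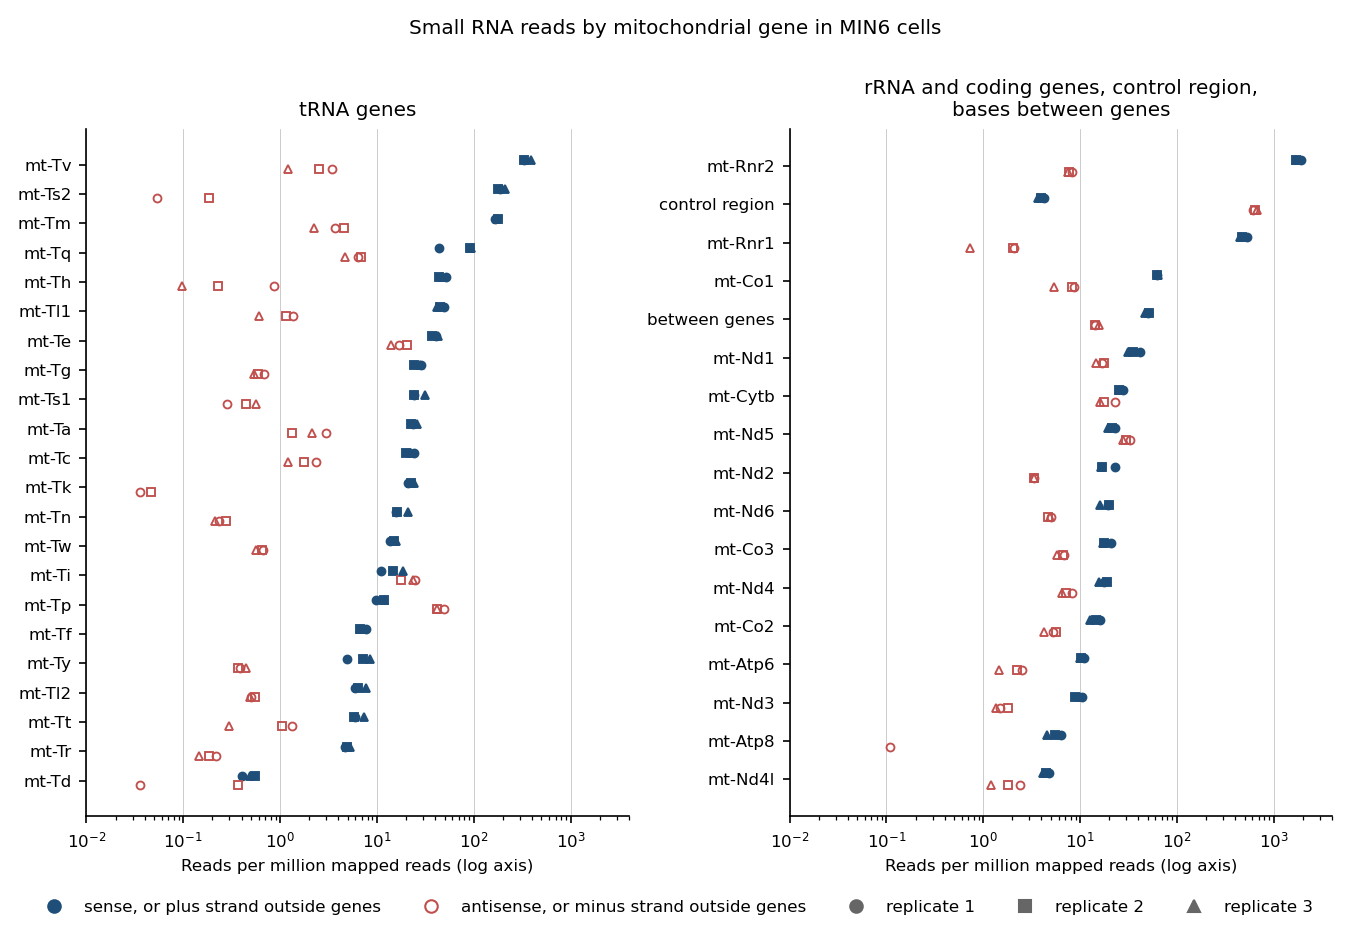
RPM (log axis) for each mitochondrial gene in each of the 3 libraries, with tRNA genes on the left and all other loci on the right; filled symbols are sense reads (plus strand outside genes) and open symbols antisense reads (minus strand outside genes), and values of 0 are not drawn. mt-Rnr2 was highest with 1702 to 1912 RPM sense, the minus strand of the control region followed with 614 to 665 RPM, and the open symbols lie to the right of the filled ones for mt-Nd5, mt-Tp and mt-Ti.

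The single most abundant mitochondrial start was the first base of mt-Rnr2 (chrM:1094-2675, plus strand), which encodes the rRNA of the large mitochondrial ribosomal subunit. It was expressed at 957, 863 and 819 RPM in replicates 1, 2 and 3, with a mean of 880 ± 70.7 RPM, or 19.2% of all mitochondrial reads. Reads from this base made up 49.6% ± 1.47 of the sense reads of mt-Rnr2, which summed to 1912, 1702 and 1710 RPM. Their lengths were not uniform, with 24 nt most frequent (32.1% ± 0.715), then 21 nt (15.5% ± 0.741), 25 nt (14.2% ± 0.498), 20 nt (9.68% ± 0.633) and 40 nt (8.29% ± 0.717). Only 3.40% ± 0.154 of them ended in a mismatching base, the lowest share among the leading starts, and 81.2% had a whole-number value. The shorter reads were divided more often, since 96.0% of the 24 nt reads had a whole-number value compared with 59.6% of those of 21 nt and 32.3% of those of 20 nt.

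mt-Rnr1 (chrM:70-1024, plus strand), which encodes the rRNA of the small subunit, was expressed at 532, 465 and 448 RPM, and its reads were spread along the gene. Its first base held 24.2 ± 2.73 RPM, or 5.02% ± 0.229 of its sense reads, compared with 49.6% in mt-Rnr2. Per kb of gene, mt-Rnr2 reached 1122 RPM and mt-Rnr1 504.3 RPM, and mt-Rnr2 was higher in every library. In mt-Rnr1 the leading reads began inside the gene, at positions 515 to 518, counted from its first base. That group of 4 starts held 86.3, 75.5 and 67.8 RPM, and 17 nt was its most frequent length. A similar group of 4 starts lay at positions 708 to 711 of mt-Rnr2, with 58.3, 49.0 and 59.6 RPM and a most frequent length of 33 nt.

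A pair of neighbouring starts at positions 1376 and 1377 of mt-Rnr2 held 31.5, 23.2 and 46.0 RPM, a wider spread between libraries than at the other rRNA groups. Nearly all reads from this pair carried the same internal mismatch, T1391A, which lies at chrM position 2484 and is given as the base of the genome, the position from the first base of mt-Rnr2 and the base of the read. It was present in 92.2% ± 0.798 of the reads that began at position 1376, in 97.0% ± 2.74 of those that began at position 1377, and in 86.4% ± 4.66 of the 1212 reads that covered the position. In contrast, none of the 23.2 reads (expected counts) that ended at least 7 bases past the position carried it. The mismatch was therefore seen in short reads whose 3′-end lay within 6 bases of it.

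The 3′-ends of the rRNAs also differed. Reads that reached the last base of mt-Rnr2 summed to 71.9, 61.8 and 71.6 RPM, and 23.2% of them ended exactly there. Another 63.5% ended at least 5 bases further, inside mt-Tl1, the leucine (UUR) tRNA gene that follows without a gap. The most frequent ending lay 7 bases into mt-Tl1, with 31.3, 25.99 and 30.7 RPM, or 42.8% of the reads that reached the end of mt-Rnr2. For mt-Rnr1 only 1.94 ± 0.282 RPM reached the end of the gene, 77.7% of these ended 1 base past it, and no read ended 5 or more bases past it. In total, 1349 reads spanned the 5′-junction of a tRNA with at least 5 bases on each side, and 1312 of these lay at the junction of mt-Rnr2 and mt-Tl1.

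**Figure D2:**
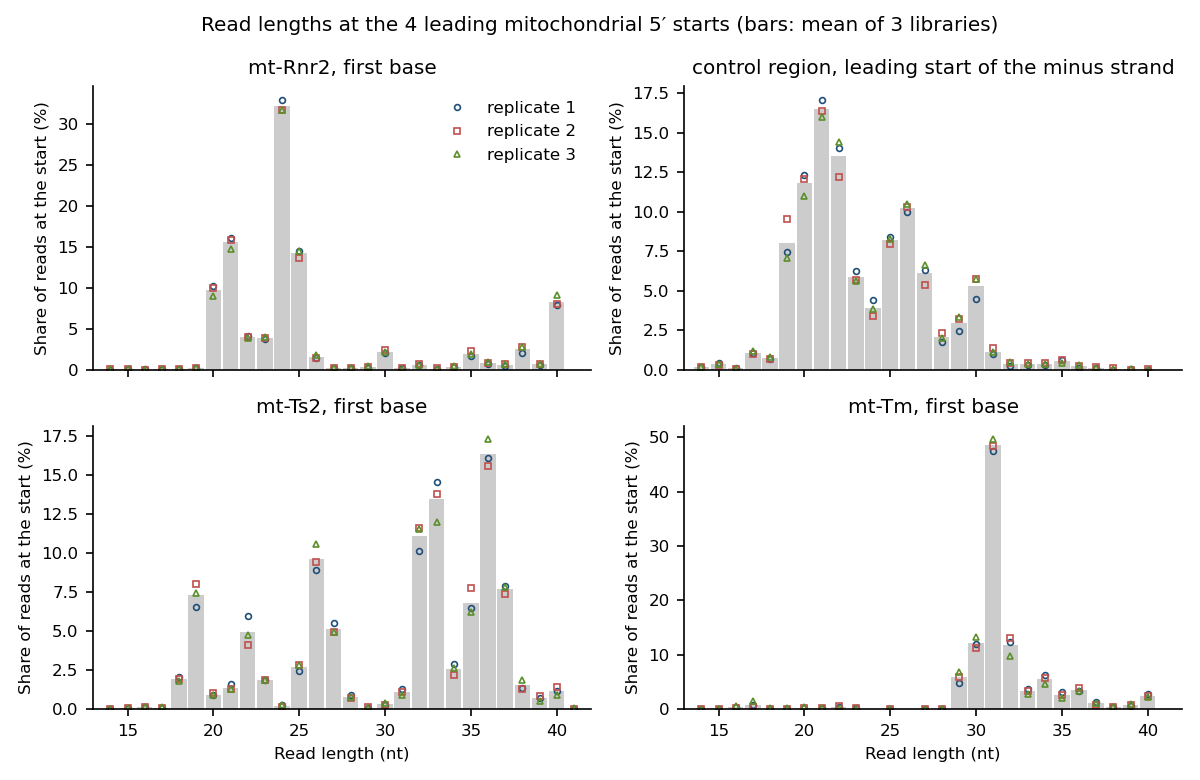
Length distribution (nt) of the reads at the 4 leading mitochondrial 5′-starts, as the share of the reads at that start (%); bars are means of 3 libraries and symbols are the libraries. Each start had its own profile in all libraries, with a peak at 24 nt for mt-Rnr2 (32.1%), at 21 nt for the control region (16.5%), at 36 nt for mt-Ts2 (16.3%) and at 31 nt for mt-Tm (48.5%).

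The tRNA genes together reached 1141 ± 83.6 RPM sense, and the range between them was wide. mt-Tv, the valine tRNA, which human mitochondrial ribosomes also carry as a structural RNA, was expressed at 333, 333 and 391 RPM. mt-Ts2, the serine (AGY) tRNA, which lacks the D arm of other tRNAs, followed with 189, 179 and 210 RPM, and mt-Tm, the methionine tRNA used for initiation and elongation, with 168, 179 and 176 RPM. These 3 tRNAs held 63.0% of the sense reads of all tRNAs. In order of the mean, mt-Tq (glutamine) reached 76.4 ± 27.8 RPM, mt-Th (histidine) 47.5 ± 3.85, mt-Tl1 (leucine UUR) 45.4 ± 3.82, mt-Te (glutamate) 40.2 ± 3.14, mt-Tg (glycine) 26.96 ± 2.22, mt-Ts1 (serine UCN) 26.5 ± 4.02 and mt-Ta (alanine) 23.8 ± 1.68.

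The remaining tRNAs lay below these 10. mt-Tc (cysteine) and mt-Tk (lysine) reached 22.4 ± 2.14 and 22.3 ± 1.57 RPM, and mt-Tn (asparagine), mt-Tw (tryptophan), mt-Ti (isoleucine) and mt-Tp (proline) between 11.2 and 17.6 RPM. mt-Tf (phenylalanine), mt-Ty (tyrosine), mt-Tl2 (leucine CUN), mt-Tt (threonine) and mt-Tr (arginine) lay between 4.96 and 7.06 RPM. mt-Td, the aspartate tRNA, was lowest with 0.405, 0.547 and 0.487 RPM, close to the 3-read limit, and none of its reads had a whole-number value. Of the 21 pairs of neighbours in this order, 12 had the same order in every library. In 7 of these 12, those after mt-Tv, mt-Ts2, mt-Tm, mt-Te, mt-Tp, mt-Tt and mt-Tr, the ranges of the libraries did not overlap. The 14 tRNAs of the plus strand summed to 916 ± 54.2 RPM and the 8 of the minus strand to 225 ± 34.9 RPM. For mt-Th, mt-Te, mt-Tg, mt-Ts1, mt-Tk, mt-Tn, mt-Tw, mt-Ty, mt-Tr and mt-Td, fewer than 50% of the reads had a whole-number value, so their levels depend on how shared reads were divided.

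Summed over all tRNAs, the reads came mainly from either end of the tRNA. This did not hold for each tRNA. In mt-Tl1, mt-Ta, mt-Tc, mt-Tl2, mt-Tr and mt-Td most reads neither began on the first base nor reached the last base. Of the sense tRNA reads, 38.1% ± 2.05 began on the first base (5′-fragments), and 39.7% ± 1.14 reached the last base or beyond (3′-fragments). Which end was more abundant depended on the tRNA. First-base reads exceeded end-reaching reads in every library for 7 of the 22 tRNAs, mt-Ts2, mt-Ts1, mt-Tm, mt-Ty, mt-Ti, mt-Tq and mt-Tl2. End-reaching reads exceeded first-base reads in every library for 14, and mt-Td showed neither. In mt-Ts2, 93.9% ± 0.655 of the reads began on the first base, compared with 90.6% ± 0.863 in mt-Ts1 and 85.9% ± 0.282 in mt-Tm. In contrast, 87.4% ± 1.34 of the mt-Tv reads reached the 3′-end and 1.54% ± 0.618 began on the first base. End-reaching reads also made up 83.3% ± 2.51 of the reads of mt-Tw, 74.6% ± 3.93 of those of mt-Tk and 71.6% ± 1.95 of those of mt-Tn.

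The first base of mt-Ts2 was the third most abundant mitochondrial start, at 176, 169 and 198 RPM, and that of mt-Tm the fourth, at 144, 154 and 151 RPM. Among the 4 leading starts the reads of mt-Tm were the most uniform in length, with 31 nt making up 48.5% of them. The anticodon of mt-Tm occupies positions 31 to 33 of the tRNA, and 49.9% ± 0.641 of the first-base reads ended on position 31, its first base. A further 16.1% ± 2.44 ended on position 32 and 13.98% ± 1.07 on position 30. The first-base reads of mt-Ty were rarer, at 5.36 ± 1.70 RPM, and 87.5% ± 5.62 of them ended on position 31, the last base of its anticodon at positions 29 to 31.

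To compare tRNAs, the anticodon loop was taken as the 7 bases from 2 before to 2 after the anticodon, which was not found or not unique in mt-Tl1, mt-Tk and mt-Tp. Among the 10 tRNAs with a defined anticodon and at least 10 first-base reads in every library, 6 had over 50% of these reads ending inside the loop, with a median of 58.0%. The highest shares were those of mt-Ty (97.8% ± 1.31) and mt-Tm (91.1% ± 0.707), and mt-Ts2 had 55.2% ± 0.642. mt-Ts1 was the exception with 2.52% ± 0.659, since its first-base reads ended mainly on positions 18 (22.4% ± 2.32) and 21 (21.8% ± 2.45). mt-Ti had 24.8% ± 1.42, and its reads ended most often on positions 36 and 35, past the loop.

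The first base of mt-Tq differed between the libraries, with 18.7 RPM in replicate 1 and 58.3 and 58.9 RPM in replicates 2 and 3. The lengths differed as well, since 12.1% of these reads ended on position 39 in replicate 1 compared with 21.1% and 25.9% in replicates 2 and 3. Nearly all reads of mt-Tq had a whole-number value (96.8%). Replicate 1 was lowest in 8 of the 10 tRNAs with at least 10 first-base reads in every library, including mt-Tv with 2.805, 5.77 and 7.93 RPM and mt-Ti with 7.91, 10.7 and 14.6 RPM. The 5′-fragments of mt-Tm and mt-Ts2, which were more abundant than those of mt-Tq, varied less, with 144, 154 and 151 RPM and with 176, 169 and 198 RPM.

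**Figure D3:**
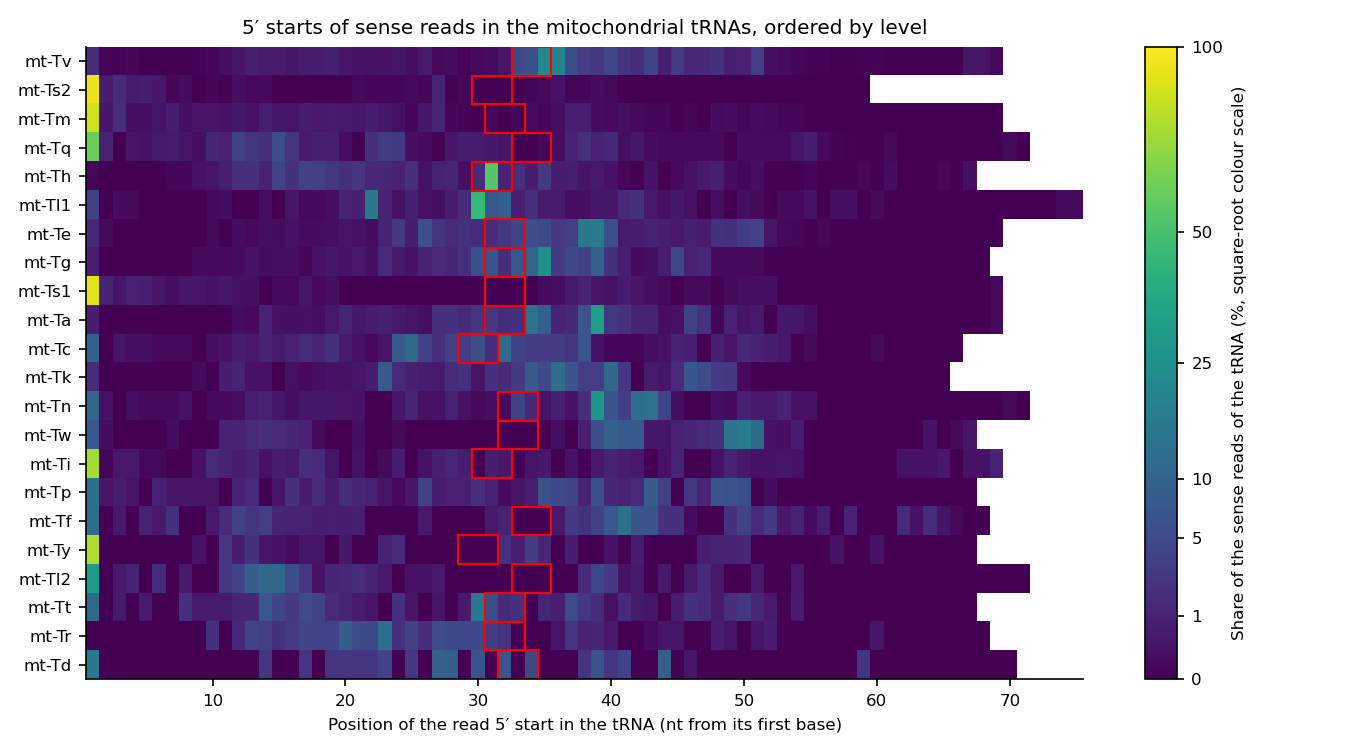
Share of the sense reads of each tRNA (%, colour, square-root scale) that began at each position of the tRNA (nt from its first base), over the summed reads of the 3 libraries, with the tRNAs ordered by level and the anticodon outlined in red where it was found once. Reads of mt-Ts2, mt-Ts1 and mt-Tm begin on the first base (means of 85.9% to 93.9%), whereas those of mt-Tv begin mainly at positions 33 to 37 and those of mt-Th at position 31.

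Among 3′-fragments, those of mt-Tv stood out. A group of 5 neighbouring starts at positions 33 to 37 held 200, 200 and 221 RPM, all with whole-number values, and its anticodon occupies positions 33 to 35. The start at position 35 held 75.0 ± 2.51 RPM and that at position 36 held 71.8 ± 5.65 RPM, while positions 34, 37 and 33 held 21.3, 19.99 and 18.9 RPM. Each of these starts had its own most frequent length, because many of the reads shared their 3′-end. At position 35, 78.7% of the reads were 38 nt long, and at position 36, 49.7% were 37 nt long. At position 33, 95.3% were 40 nt long. Reads of 41 nt made up only 0.00530% of the mitochondrial reads, so longer endings from position 33 could hardly be seen. The same held for reads with CCA from earlier starts, so the edge of the group at position 33 depends on the read length. mt-Th also had its leading start in the anticodon, but as a single start and with less uniform lengths. Position 31, the middle base of its anticodon at positions 30 to 32, held 28.1, 24.3 and 23.7 RPM, or 53.4% ± 2.49 of the mt-Th reads. The most frequent length there was 40 nt, with 39.4% of the reads from this start. mt-Tl1 had its leading start at position 30, with 20.3 ± 3.03 RPM. A read from this start to the 3′-end would be longer than 41 nt, the longest read kept, so its ending could not be seen.

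Among the 13 tRNAs with a defined anticodon and at least 10 end-reaching reads in every library, 4 had over 50% of these reads beginning inside the anticodon loop, namely mt-Th (88.2% ± 2.96), mt-Tv (66.7% ± 1.68), mt-Tg (62.9% ± 1.13) and mt-Tt (56.5% ± 9.62). The median of the 13 was 18.9%. The 3′-fragments of mt-Tn and mt-Ta began most often on position 39, and those of mt-Tw on position 50, with 0.589% ± 0.243 of the mt-Tn reads and 0.164% ± 0.143 of the mt-Tw reads beginning in the loop. Because reads were at most 41 nt long, 3′-fragments that begin further 5′ could not be seen, and in longer tRNAs such as mt-Tn only some bases of the loop could be a start. The shares therefore depend partly on the length of the tRNA.

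Reads that reached the 3′-end of a tRNA carried CCA in 67.2%, 66.9% and 67.2% of cases in replicates 1, 2 and 3, with a mean of 67.1% ± 0.171. These pooled shares rest mainly on mt-Tv. Summed over the libraries, it gave 9317 of the 13736 end-reaching reads and 6621 of the 9218 with CCA. The full CCA is not encoded at these positions, so each read with CCA mismatched the genome in at least 1 base past the gene. Single bases of the tail can match, as the second C does after mt-Tv. Incomplete endings were rarer, with CC on 7.48% ± 0.122, C on 1.72% ± 0.177 and the bare last base on 2.92% ± 0.0709 of the end-reaching reads. Reads that began like CCA and continued past it made up 8.80% ± 0.600, including 4.72% ± 0.306 with CCACC. Of these 1212.5 reads, 1155 came from mt-Tv, as did 611 of the 651 reads with CCACC. Of the 16 tRNAs with at least 10 end-reaching reads in every library, CCA was the most frequent ending in 11 and exceeded 50% in 10. It was most frequent in mt-Ts2 (95.5% ± 4.70), mt-Tn (95.04% ± 1.03), mt-Tw (92.5% ± 2.02) and mt-Tk (83.0% ± 1.56), and mt-Tm (78.4% ± 4.14), mt-Te (74.2% ± 2.97) and mt-Tv (71.2% ± 1.38) followed. For mt-Tc and mt-Tf the share of CCA could not be fully determined, because a base after the gene was not known.

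Several tRNAs departed from this pattern. In mt-Tg, CC (50.3% ± 4.37) was more frequent than CCA (24.9% ± 4.40). In mt-Th, CCA reached 41.1% ± 2.41, and CA without the first C (21.1% ± 1.51), C (14.6% ± 0.497) and the bare last base (11.6% ± 1.24) were all present. In mt-Ta, CCA (21.4% ± 1.69) was close to the longer ending CCACC (17.3% ± 2.75), and CCC (12.8% ± 2.90) and CC (11.8% ± 1.85) followed. CCACC was also found in mt-Tv, on 6.53% ± 0.378 of the end-reaching reads. It made up 3.32% ± 0.296 of those that began at position 35 and 21.1% ± 2.03 of those that began at position 36, and at the same starts CCA made up 78.2% ± 0.810 and 49.4% ± 1.63. From position 33, a read with CCACC would exceed 41 nt. The number of mismatches that the alignment allowed at a 3′-end depended on the read length, 2 at 19 to 23 nt and 3 above 23 nt, and the part of this limit in the shares was not tested.

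**Figure D4:**
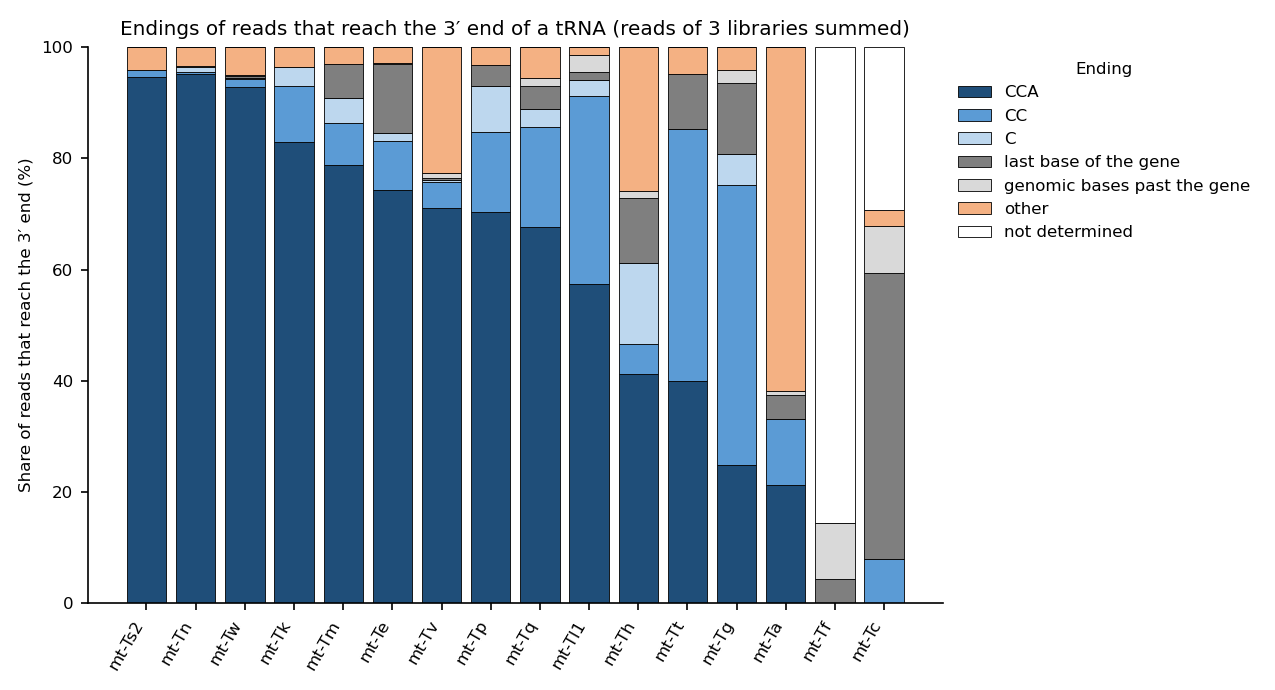
Endings of the reads that reached the 3′-end of each tRNA, as shares of these reads (%) with the 3 libraries summed, for the 16 tRNAs with at least 10 such reads in every library. CCA exceeds 90% in mt-Ts2, mt-Tn and mt-Tw, CC is most frequent in mt-Tg and mt-Tt, the group of other endings (which includes CCACC) is most frequent in mt-Ta, and for mt-Tf and mt-Tc part of the endings could not be determined.

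The 5′-fragments of mt-Ts2 often carried mismatching tails, although they ended in the middle of the tRNA. Of the reads that began on its first base, 16.1% ± 1.16 ended in a mismatching ACC, 7.42% ± 0.174 in ACCA and 1.65% ± 0.233 in ACCC, whereas 62.6% ± 0.445 had no mismatching end. In 19.9% ± 1.13 of all first-base reads, ACC or ACCA followed position 33, 1 base past the anticodon at positions 30 to 32. The fragment with ACC printed above was the most abundant form, with 181, 206 and 252 reads in replicates 1, 2 and 3, compared with 127, 162 and 180 reads of the fragment without a tail. First-base reads without a mismatching end, some of which held an internal mismatch, ended most often on positions 32, 26 and 33. These made up 10.5% ± 0.762, 9.45% ± 0.875 and 8.76% ± 0.655 of all first-base reads. For comparison, 9.18% ± 1.67 of the first-base reads of mt-Tm and 35.2% ± 0.321 of those of mt-Ts2 ended in a mismatching base. A mismatching ACC was not confined to mt-Ts2. It ended 10.9% of the minus-strand reads between genes and 7.92% of the antisense rRNA reads, but 0.174% of the sense rRNA reads.

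The junctions at tRNA 3′-ends were rarely spanned by a read. Summed over the libraries, 45.3 reads spanned the 3′-junction of a tRNA, compared with 35211 reads that began on the base right after a tRNA. Of the latter, 26576 were those at the first base of mt-Rnr2. A spanning read had at least 5 bases on each side and no mismatch in the first 3 bases past the tRNA. The count at 5′-junctions had no such mismatch filter. For 12 tRNAs the base after them held at least 10 reads in every library, and in 7 of these no gene began there on that strand. The first bases of 3 coding genes that follow a tRNA were among them, with 5.85 ± 1.22 RPM for mt-Nd1 after mt-Tl1, 7.14 ± 0.402 RPM for mt-Nd3 after mt-Tg and 2.73 ± 0.959 RPM for mt-Nd2 after mt-Tm. In mt-Nd3, a small subunit of complex I, these reads made up 73.2% ± 2.30 of its sense reads.

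Where no gene begins, the reads after a tRNA lay antisense to the next gene or in a gap. The base after mt-Tt, the threonine tRNA, lies antisense to mt-Tp and held 43.3, 37.1 and 35.4 RPM, with 37 nt as the most frequent length (34.6%). The base after mt-Tq on the minus strand lies antisense to mt-Ti and held 22.7, 16.4 and 22.2 RPM, with 18 nt as the most frequent length (29.8%). The base after mt-Tw on the plus strand lies in the gap before the minus-strand gene mt-Ta and held 17.0, 14.7 and 16.2 RPM. The bases after mt-Tc and mt-Ta on the minus strand held 4.33 ± 0.828 and 3.88 ± 0.344 RPM. Not all tRNAs showed such reads, as none began after mt-Ts2, whose last base is shared with mt-Tl2.

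The control region (the noncoding bases from position 15423 to the end of the circle) gave reads from the minus strand, on which they summed to 614, 645 and 665 RPM, compared with 4.20, 3.91 and 3.69 RPM on the plus strand. The minus strand thus held 99.4% ± 0.0636 of its reads. A single start at position 16188 held 361, 402 and 416 RPM, or 61.2% ± 2.06 of the minus-strand reads, and was the second most abundant mitochondrial start. It lies 766 bases before the first base of mt-Tp, the first gene in the direction of transcription. Its reads were short, with 21 nt most frequent (16.5% ± 0.561), then 22 nt (13.6% ± 1.19), 20 nt (11.8% ± 0.709) and 26 nt (10.3% ± 0.241). The other starts were spread over the region and summed to 247 ± 4.99 RPM. Among them, 4 neighbouring starts at positions 16076 to 16079 held 30.8, 32.6 and 34.1 RPM, and a start at position 15642 held 14.97 ± 1.90 RPM. The sequence of the control region was not used here.

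The reads from the leading control region start often ended in mismatching bases, whose source was not tested. Of these reads, 42.4% ± 1.08 had no mismatching end, and 32.7% ± 1.14 ended in mismatching A only. A single A was the most frequent tail (23.5% ± 1.24), then AA (5.37% ± 0.349) and AAA (2.41% ± 0.368). A further 12.6% ± 0.887 ended in a tail with a final CC or CCA, which included ACC on 5.99% ± 0.341. On the whole minus strand of the control region, the last base mismatched in 48.6% ± 0.856 of the reads, compared with 42.2% ± 1.33 of the sense tRNA reads, 17.5% ± 0.0731 of the sense coding reads and 8.78% ± 0.447 of the sense rRNA reads. Such high shares were not particular to the control region. The share was 51.6% ± 1.10 in minus-strand reads between genes and 46.7% ± 4.19 in antisense rRNA reads. In antisense coding and antisense tRNA reads it was 28.3% ± 0.951 and 27.3% ± 1.66. Of the sense tRNA reads, 26.7% ended in a mismatching CCA, whereas A tails led in the control region.

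The 13 coding genes gave few reads, 264 ± 17.8 RPM sense in total. The subunits of complex IV, cytochrome c oxidase, summed to 95.5 ± 2.54 RPM over 3 genes, those of complex I, NADH dehydrogenase, to 126 ± 13.2 RPM over 7 genes, mt-Cytb of complex III to 26.1 ± 1.27 RPM, and the ATP synthase subunits mt-Atp6 and mt-Atp8 to 15.8 ± 1.31 RPM. Per kb of gene the level was 31.7 RPM for complex IV, 22.8 for complex III, 19.8 for complex I and 17.9 for ATP synthase. mt-Co1, the catalytic subunit of complex IV, was the highest coding gene, at 61.7, 61.6 and 64.2 RPM, or 40.5 RPM per kb. Its leading start, at position 875, held 4.32 ± 0.185 RPM, well below the leading starts of the rRNAs and tRNAs.

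mt-Nd1 followed with 41.1, 35.4 and 31.2 RPM, and mt-Nd6, the only coding gene on the minus strand, reached 18.6 ± 2.16 RPM. Their levels per kb, 37.6 and 35.8 RPM, were close to that of mt-Co1. mt-Nd5 reached 21.3 ± 1.75 RPM, mt-Nd2 18.8 ± 3.61, mt-Nd4 17.4 ± 1.61, mt-Nd3 9.77 ± 0.823 and mt-Nd4l 4.46 ± 0.327. In complex IV, mt-Co3 reached 18.5 ± 1.96 RPM and mt-Co2 14.5 ± 1.62 RPM. The values of mt-Co2, mt-Co3, mt-Atp6, mt-Atp8 and mt-Nd4l rest mainly on divided reads, since only 10.96% to 24.5% of their reads had a whole-number value.

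Many of the divided reads had a counterpart in the nuclear genome, where copies of mitochondrial DNA are known. Among the exact mitochondrial alignments of at least 20 nt with a fractional value, 31.8% to 33.8% per library had a read of the same length and value on chromosome 1 at a single fixed offset in the opposite orientation, between mitochondrial positions 6399 and 10563. A single offset held 17.4% to 19.7% of them on chromosome 2, 17.3% to 18.3% on chromosome 12 and 8.33% to 9.11% on chromosome 10, and further offsets on chromosomes 1, 2, 4 and 6 held 5.14% to 7.48% each. Not every nuclear chromosome was searched, and only offsets shared by many alignments were kept, so other copies could be missed. Reads that match both the mitochondrial genome and such a copy cannot be told apart. The share of whole-number reads was 90.01% ± 0.995 in sense rRNA reads, 83.9% ± 1.06 in sense tRNA reads, 81.0% ± 0.552 in control region reads of the minus strand and 69.5% ± 0.935 in sense coding reads.

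Antisense reads exceeded sense reads in every library at 3 genes, mt-Tp, mt-Ti and mt-Nd5. For mt-Tp, antisense reads reached 48.9, 41.7 and 41.3 RPM, compared with 9.84, 11.9 and 11.9 RPM sense, and 87.8% ± 1.81 of them began on the base right after mt-Tt. For mt-Ti, antisense reads reached 24.8, 17.7 and 23.9 RPM, compared with 11.1, 14.6 and 18.5 RPM sense, and 92.5% ± 0.846 began on the base right after mt-Tq. mt-Nd5, a subunit of complex I, differed from both, with antisense reads of 32.5, 29.7 and 27.98 RPM, compared with 22.9, 21.6 and 19.4 RPM sense. Its antisense reads were spread over 543 starts, and the leading start held only 1.89% ± 0.665 of them. In mt-Cytb 41.8% ± 3.42 and in mt-Te 29.96% ± 5.63 of the reads were antisense, while the antisense share was below 1% in both rRNA genes. Other coding genes had shares like that of mt-Te, with 31.3% ± 2.09 in mt-Nd1, 29.6% ± 2.28 in mt-Nd4 and 28.4% ± 5.44 in mt-Nd4l. The coding genes together gave 105 ± 11.7 RPM antisense, compared with 264 ± 17.8 RPM sense.

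The classes also differed in read length. The median length was 33 nt for sense tRNA reads, 29 nt for sense coding reads, 25 nt for sense rRNA reads and 24 nt for the control region. Reads of at least 28 nt made up 74.4% ± 1.04 of the sense tRNA reads, 55.1% ± 1.39 of the sense coding reads, 41.6% ± 1.14 of the sense rRNA reads and 26.2% ± 0.294 of the control region reads. In the control region, 66.8% ± 0.636 of the reads were 19 to 27 nt long. Over all mitochondrial reads the most frequent length, 24 nt, held only 8.64% ± 0.489.

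**Figure D5:**
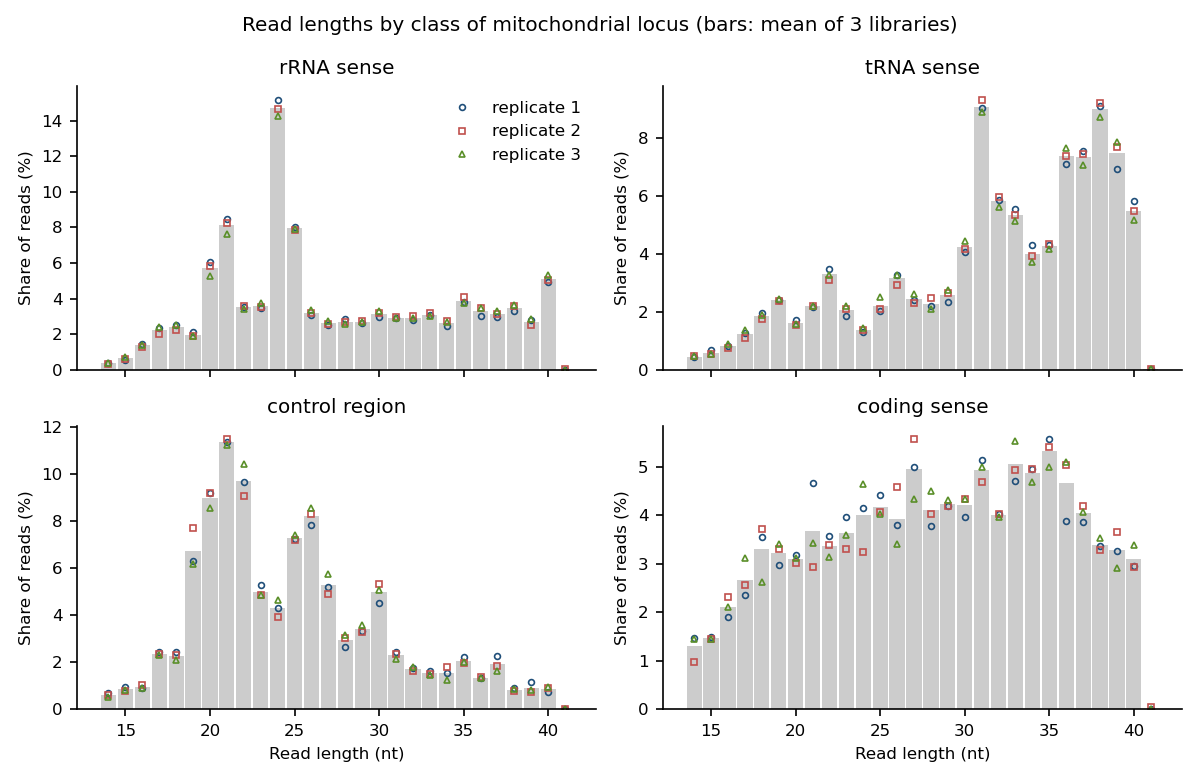
Length distribution (nt) of the mitochondrial reads by class of locus, as the share of the reads of that class (%); bars are means of 3 libraries and symbols are the libraries. Sense rRNA reads peak at 24 nt, tRNA reads at 31 nt and 36 to 39 nt, control region reads at 21 nt and 26 nt, and coding reads show no single peak.

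Compared with all other mapped reads of the same libraries, which are mostly miRNAs, mitochondrial reads were longer. Reads of 22 nt made up 4.29% ± 0.0609 of the mitochondrial reads and 51.4% ± 0.875 of the others, a difference of -47.1 ± 0.900 percentage points. Reads of at least 28 nt made up 49.0% ± 1.14 compared with 8.10% ± 0.343, a difference of 40.95 ± 0.796. A mismatching last base was present in 24.4% ± 0.830 compared with 13.5% ± 0.280, a difference of 10.9 ± 0.767. Each of these 3 differences had the same sign in 3 of 3 libraries, and each was larger than the spread between libraries. The two-sided exact permutation test over the 3 within-library differences gave p = 0.25 for each, or 0.3333 after Benjamini-Hochberg adjustment over 4 measures, and 0.25 is the smallest p that 3 libraries allow. The share of whole-number values was 85.4% ± 0.766 and 85.2% ± 0.933, a difference of 0.142 ± 0.848 (exact permutation test, p = 1, adjusted p = 1), which was smaller than the spread between libraries.

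Internal mismatches were examined at 1443 positions with at least 50 covering reads in every library, leaving out the last 5 bases of each read. At 46 of these, a single mismatching base reached at least 5% of the reads, and at 41 of the 46 the read had C where the genome has A. Examples are A10C in mt-Rnr2 (13.4% ± 0.134), A10C in mt-Tm (16.2% ± 0.694) and A6C in mt-Ts2 (7.44% ± 0.449), with positions counted from the first base of the gene. These mismatches recurred at the same positions of the read. A mismatching C at read position 10 was present in 6.15% ± 0.102 of the mitochondrial reads and in 1.29% ± 0.0781 of all other reads, at position 12 in 2.40% ± 0.109 and 1.19% ± 0.0249, and at position 6 in 2.05% ± 0.0466 and 1.19% ± 0.0608. These 3 read positions had the highest shares in both sets. At position 9 the shares were 0.408% ± 0.0158 and 0.454% ± 0.0923, and at positions 1 to 5 they were lower in mitochondrial than in other reads. The source of these mismatches was not tested.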

How the data were processed

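Small RNA was sequenced from 3 MIN6 libraries, which form 1 group. According to the study's methods, cutAdapt removed the adaptor from the 3′-end, and Bowtie placed trimmed reads of 14 to 41 nt that matched the genome exactly at no more than 20 loci. Regions less than 65 nt apart were joined and widened by 5 nt, and reads without an exact match were then placed in these regions by SHRiMP, which allowed mismatches. Each deposited value is an expected count, the number of reads behind a distinct alignment, with a read of several equally good loci divided among them. The values are not normalized, and replicates were not pooled. A mismatched read was sought only near an exact one. The build is mm9 per the labels.

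All alignments on chrM were used. The 5′-start was the first base of the alignment on its strand, after exact alignments, which end 1 base early in the deposited coordinates, were corrected. Expected counts were summed per start, strand and length and scaled to 1000000 mapped reads of the library (RPM). Gene positions and sequences were those of GENCODE M21 on chrM (GRCm38). None of 40584 mismatching read bases inside genes equalled the annotated base, compared with 22.9% and 27.1% when the annotation was shifted by 1 base in either direction. Where genes of the same strand overlap, a base was assigned to the gene that begins later. The ending of a tRNA read was read from its mismatches past the last base. Python 3.11.15, numpy 2.4.6, pandas 2.3.3, scipy 1.17.1 and matplotlib 3.10.9 were used, and the steps were tested on simulated data.

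The text gives every mitochondrial gene, and in depth the 10 highest tRNAs, the 20 highest starts, genes with more antisense than sense reads in every library, and coding genes by complex. Starts outside these groups, the mismatches and the tails were chosen after their values were seen. The genes, groups and measures were chosen with earlier results of these data known. Values are mean ± SD over 3 libraries, the only test is a two-sided exact permutation test of within-library differences, and intervals are 95% Wilson intervals. The alternatives were exact alignments only, whole-number values only, 16 to 27 nt only, the gene at the middle base, other windows at gene ends, minimums of 1 or 50 reads per start, and leaving out each replicate. Reads carry no molecular identifiers.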

Additional observations from a re-analysis of the deposited data

How the results depend on the processing

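The level of mitochondrial reads and the shares of the classes depended on which alignments were kept. Mitochondrial reads fell to 2588 RPM with exact alignments only, 3919 RPM with whole-number values only and 2281 RPM with reads of 16 to 27 nt only, and reached 3618 RPM with exact reads in numerator and denominator. With exact alignments only, the shares were 61.7% for rRNA, 18.97% for tRNA, 9.69% for the control region and 1.25% between genes, 95.2% of the reads were sense, and 59.7% of tRNA reads began on the first base. Only 2.71% then reached the 3′-end, since a read with CCA is never exact. The whole-number share was 86.5%, reads of 24 nt made up 11.1%, and 247 starts had at least 10 reads in every library. With whole-number values only, the shares were 52.0% for rRNA, 6.62% for coding genes and 1.16% between genes, CCA made up 67.6% of end-reaching reads, and reads of 24 nt 9.41%. With 16 to 27 nt only, the shares were 56.9% for rRNA, 14.2% for tRNA, 7.06% for coding genes, 20.5% for the control region and 1.26% between genes. In that range 23.04% of tRNA reads reached the 3′-end, 76.8% of these carried CCA, 80.4% of the reads had a whole-number value, and 17.4% were 24 nt long. With the gene at the middle base, 0.622% of the reads lay between genes, 93.5% were sense, and CCA made up 67.7%. The number of starts was 2170 with at least 1 read and 76 with at least 50 reads in every library. The other 17 values under these alternatives, including those with windows widened by 1 base at gene ends, moved by less than the spread between libraries, or by less than 1.5 times for the number of starts.

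Leaving out each library in turn gave 4521 to 4648 RPM, 48.0% to 50.3% for rRNA, 26.2% to 28.1% for tRNA, 13.8% to 14.6% for the control region, 7.83% to 8.32% for coding genes, 67.0% to 67.2% for CCA, and 465 to 485 starts with at least 10 reads in each of the other libraries. In the comparison with all other reads, for which this step was chosen after seeing the data, the differences were -47.6 to -46.8 points for 22 nt, 40.7 to 41.4 for at least 28 nt and 10.4 to 11.1 for the mismatching last base. The difference in whole-number values ranged from -0.329 to 0.493 and changed sign to -0.329 without replicate 1. No paired analysis was possible because no second group exists, although the comparison with all other reads is made within each library. With 3 libraries no test can fall below p = 0.25 in the exact permutation test, and starts under about 0.3 RPM cannot be told from 0.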
